A study of Mus musculus with 12 samples.

Results

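The genes described here encode the proteins of the cytosolic ribosome. They were chosen by name: every gene of either normalized table whose symbol was Rpl or Rps followed by a number with an optional a, x or l, or was Rplp0, Rplp1, Rplp2 or Rpsa, with names ending in -ps left out. The rule found 83 genes among the 33944 genes of the normalized tables, 51 of the large subunit and 32 of the small subunit by name. The annotation (GENCODE M21) gave 80 of them as protein coding, Rpl6l and Rpl32l as processed pseudogenes and Rps4l as a transcribed processed pseudogene. The colon table and the blood table held 82 members each. Rpl10l was listed for colon alone and Rpl39l for blood alone.

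The samples came from C57BL/6 mice, 8 weeks old and male by the methods of the study. UC mice drank 1.5% dextran sulfate sodium (DSS), which injures the colon epithelium and serves as an acute chemical model of ulcerative colitis (UC), for 7 days and were killed on day 8, and control mice drank water without DSS. Total RNA without the small fraction was sequenced from the colon and the whole blood of the same 6 mice, chosen from a larger set by their disease activity, which gave 3 libraries for each of UC colon (mice 1, 2 and 4), control colon (mice 7, 8 and 9), UC blood and control blood. Blood and colon were extracted and depleted of abundant RNA with different kits, so tissue and kit cannot be told apart.

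Each library held 69181049 to 103662306 counts in colon and 80867247 to 142536804 in blood, of which the signal recognition particle genes Rn7s1 and Rn7s2 took 4.90 to 6.50% in colon and 35.9 to 65.4% in blood. Each sample carries 2 tissue entries in its labels that contradict each other. The entry used here was borne out by the red cell markers (all 7 tested were called higher in blood, none of them at 0 in every library) and the colon epithelium markers (all 8 called higher in colon). Neutrophil markers did not follow the disease labels. The 3 highest levels lay in mice 1, 7 and 9 for 11 of 11 neutrophil markers with a mean of 10 or more in colon and for 11 of 12 in blood, although mice 7 and 9 are labelled control. In colon the labelled UC libraries also had the 3 highest totals. The groups are therefore called by their labels below.

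Ribosomal proteins are made in nearly equal numbers, and their messages are among the most abundant of any cell. Most of these messages begin with a C followed by an unbroken run of pyrimidines, the 5′ terminal oligopyrimidine (TOP) tract. Through it, mTOR signalling and the RNA-binding protein Larp1 set how much of the pool is translated, so that message level and protein output can part. In the intestine the crypt epithelium renews itself and needs much ribosome production. In blood, most RNA belongs to leukocytes and to reticulocytes, young red cells that keep making globin from ribosomes they inherited. A few members have paralogs with restricted expression: Rpl3l in striated muscle, Rpl10l and Rpl39l in testis.

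Runs of pyrimidines like that of the TOP tract lay near the annotated start of many members. The sequences below run from 30 bases before the RefSeq start (GRCm38.p6) to 29 after it, on the transcribed strand, with capitals for the longest run of C and T that reaches into the stretch from 10 bases before the start onward. They show small-subunit and large-subunit genes with a run across the start (Rps6, the phosphorylation target of S6 kinase, Rpl28 and Rpl35a). The next 2 are the sides of a paralog pair that differed between the tissues (Rps27 and Rps27l). The last 2 members had opposite tissue differences (Rps26 and Rps9). The run of Rps27l began 12 bases before the start and ended before it, and that of Rps26 began at base 4.
Rps6, chr4:86857338-86857397, minus strand: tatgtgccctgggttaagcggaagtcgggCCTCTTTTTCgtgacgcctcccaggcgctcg
Rpl28, chr7:4792935-4792994, plus strand: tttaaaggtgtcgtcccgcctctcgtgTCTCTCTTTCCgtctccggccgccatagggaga
Rpl35a, chr16:33056452-33056511, plus strand: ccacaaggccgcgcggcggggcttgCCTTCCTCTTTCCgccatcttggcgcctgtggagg
Rps27, chr3:90213619-90213678, minus strand: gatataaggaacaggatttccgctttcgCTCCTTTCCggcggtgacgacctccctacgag
Rps27l, chr9:66946056-66946115, plus strand: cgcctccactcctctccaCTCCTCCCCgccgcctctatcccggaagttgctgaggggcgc
Rps26, chr10:128626477-128626536, minus strand: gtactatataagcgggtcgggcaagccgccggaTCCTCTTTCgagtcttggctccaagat
Rps9, chr7:3704011-3704070, plus strand: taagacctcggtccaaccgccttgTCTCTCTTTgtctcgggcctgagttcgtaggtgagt

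RefSeq promoter windows of 300 bases were at hand for 61 of the 83 members. A run of 10 or more C and T that reached into the stretch from 10 bases before the start to the end of the window occurred in 41 of these 61 genes (67.2%), against 13.5% of all 27025 genes with a window and 13.3% of the protein-coding ones. Such a run could lie anywhere in this stretch, and in Rpl10, Rpl41 and Rps2 it began only at base 41 from the start. The count is therefore not one of TOP tracts alone. The letters CCGGAAG are known as a site bound by ETS factors. Read on both strands anywhere in the 300 bases, they occurred in 25 of 61 (41.0%). The share was 9.93% over all genes and 13.3% over protein-coding genes. The letters TATAAA, read in the same way, occurred in 7 of 61 (11.5%) against 15.7% of all genes and 14.3% of protein-coding genes. These are descriptions of letters in a window. In the data, the 41 members with such a run had a median log2FC of -0.71 in colon over blood and the 18 tested members without one had -0.69. Between the disease labels the medians with and without the run were 0.11 and 0.12 in colon and -0.05 and -0.06 in blood.

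As a whole, the ribosomal protein genes did not separate the libraries labelled UC from those labelled control in either tissue. In colon the members' normalized counts summed to 1699770, 2328890 and 2455110 in the libraries labelled UC (mice 1, 2 and 4) and to 1715260, 2216250 and 2127370 in those labelled control (mice 7, 8 and 9), or 2161260 ± 404611 and 2019630 ± 267309 (mean ± SD, n = 3 each). The groups overlapped, with mouse 1 lowest, then mice 7 and 9. In blood the sums were 1136110, 1315880 and 1342680 under the UC label and 1132620, 1542050 and 1197500 under the control label, or 1264890 ± 112329 and 1290720 ± 220059. There mouse 7 was lowest, then mice 1 and 9. The 3 lowest sums in each tissue were thus those of mice 1, 7 and 9, where the neutrophil markers were highest. Any link between them was not tested. Of all counts in the genes of a tissue's table, the members took 2.19 to 3.30% in colon and 1.80 to 3.51% in blood. The tissues overlapped by this measure, though each tissue's table holds its own set of genes. By this share the 3 lowest were mice 1, 7 and 8 in colon and mice 1, 2 and 9 in blood. Of all counts with the Rn7s genes included, they took 1.92 to 2.87% in colon and 0.757 to 1.57% in blood, without overlap. In bulk samples fewer cells of a type and less RNA per cell cannot be told apart.

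**Figure D1:**
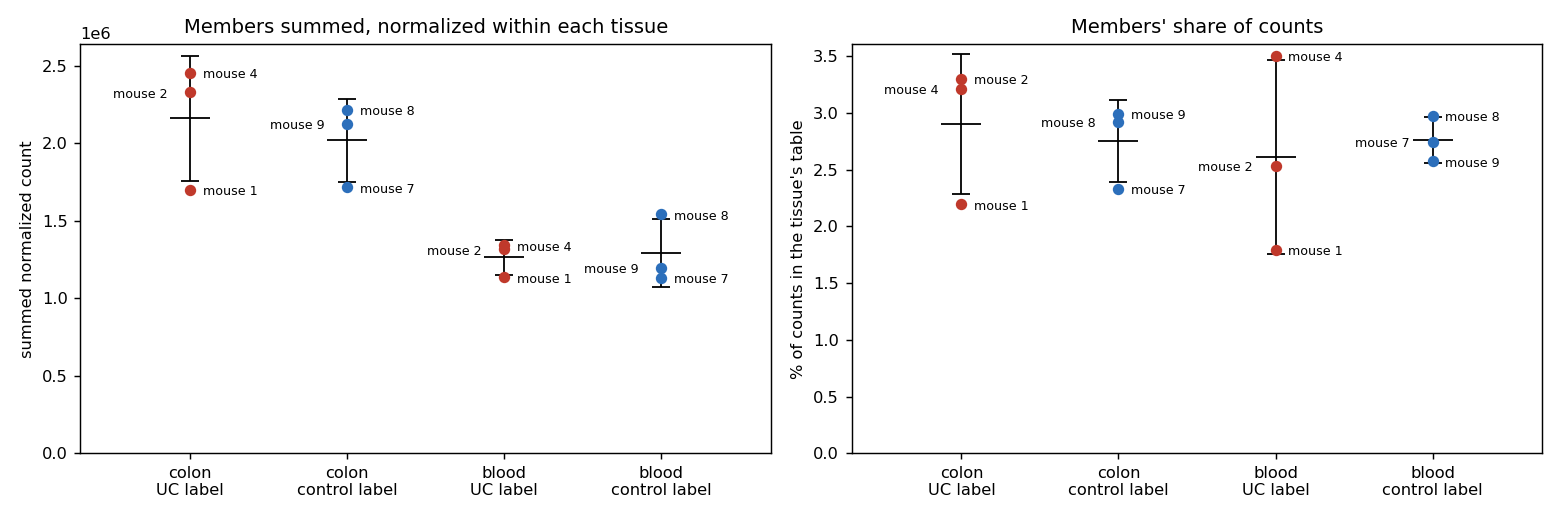
Left, the members' summed normalized counts per library. Right, their share in percent of the counts in the genes of that tissue's table. Each point is a library with its mouse number, and the black marks are the mean ± SD of 3 libraries. Counts on the left were normalized separately in colon and blood, so they compare within a tissue alone. The UC and control labels overlap in each tissue, and mice 1, 7 and 9 have the 3 lowest sums on the left.

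In colon the order of the libraries was much the same from member to member. Mouse 1 was the lowest library for 48 and mouse 7 for 31 of the 80 members tested. These 2 libraries were the lowest 2 for 64 of 80. Mice 1, 7 and 9 were the lowest 3 for 45 of 80, and mice 1, 7 and 8 for 22. The highest library was mouse 4 for 42 members and mouse 2 for 20. In blood, where mouse 1 was lowest for 43 of 81 members and mouse 8 highest for 39, the order was less uniform. The commonest lowest pair there, mice 1 and 9, held for 23 of 81. The lowest 3 were mice 1, 2 and 9 for 22 members and mice 1, 7 and 9 for 17. The summed neutrophil markers in colon were 37153, 28715 and 81047 normalized counts in mice 1, 7 and 9 and 8182.5, 17308 and 18573 in mice 2, 4 and 8. The summed colon epithelium markers were 1640090 and 1773580 in mice 1 and 7 and 849039, 967669, 1117230 and 793792 in mice 2, 4, 8 and 9. Muc2 alone had 1019390 and 917317 in mice 1 and 7 and 174587, 151064, 193612 and 242781 in mice 2, 4, 8 and 9. Of the 8 epithelium markers, Muc2, Cdx2 and Krt20 had mice 1 and 7 as their 2 highest libraries, and the others did not. Slc26a3 had 25107 and 35702 in mice 1 and 7, 27095 in mouse 9 and 72441 to 132812 in mice 2, 4 and 8. Mice 1 and 7 were the 2 lowest libraries for 5 of 6 proliferation markers and 15 of 30 ribosome biogenesis genes. No marker of these lists was at 0 in every colon library. The part of these markers in the order of the members was not tested. The exceptions to this order in colon were few. Rplp2, Rps20 and Rpl41 had mice 1 and 2 as the lowest libraries, and Rpl22 and Rps27l had mice 7 and 8.

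Levels between members are compared per kb of transcript, since a longer transcript collects more reads. In colon, Rplp1 stood highest at 123031 ± 16688 normalized counts per kb (SD over 6 libraries), followed by Rps29 (90490), Rps27 (86396), Rplp0 (73437) and Rps14 (71418). In blood, Rplp1 (113739 ± 21834) and Rplp0 (113482 ± 16872) had the same level within their spread, followed by Rps29 (105384), Rpl41 (73101) and Rps12 (68227). Rplp0 is the scaffold of the ribosomal stalk, which recruits the elongation factors, and Rplp1 and Rplp2 attach to it in dimers. The median over the 78 members with at least 100 counts in every library was 31428 per kb in colon and 13545 in blood, on 2 separately normalized scales. At the low end lay Rpl3l, Rpl32l, Rps4l and Rpl6l in both tissues, with Rpl10l in colon and Rpl39l in blood.

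Some members varied much more than others among the libraries of a tissue. Rpl9, a large subunit protein, ran from 26130 normalized counts in mouse 1 and 26211 in mouse 7 to 60579 in mouse 4 in colon, a coefficient of variation of 35.7%, the highest among the 78 members, whose median was 17.0%. Rpl7a was the steadiest in colon at 7.88%, then Rpl41 at 12.4% and Rpl18 at 12.7%. In blood Rps6 was the steadiest at 4.24%, between 10840 and 12039 normalized counts in the 6 libraries, followed by Rpl19 at 9.18% and Rpl24 at 10.1%. The median in blood was 18.1%. The barely expressed paralogs Rpl39l, Rpl3l and Rps4l had the highest coefficients there.

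The first comparison set the colon libraries labelled UC against those labelled control. Because the neutrophil markers did not follow these labels, it cannot tell whether DSS colitis changed ribosomal protein transcripts. None of the 80 members tested passed the threshold for a significantly differentially expressed (SDE) gene, an adjusted p (padj) of at most 0.05 with an absolute log2 fold change (log2FC) over 1 in edgeR's quasi-likelihood test. Over all genes 1 of 22238 was SDE (0.00450%), and it was no member. No member had an unadjusted p below 0.05, and DESeq2 and limma-voom called no member either. The members' median log2FC was 0.11, against -0.01 for all genes tested, with 61 members above 0 and 19 below. It fell to -0.0009 without mouse 4 and rose to 0.26 without mouse 1.

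The members at either end in colon were small in effect. Rps20, a head protein of the small subunit, had a log2FC of -0.45 ± 0.22 (SE). Its normalized counts were 11033, 14947 and 15217 under the UC label and 18139, 22223 and 15119 under the control label, so the groups overlapped by 1 library. Next came the stalk protein Rplp2 (-0.30 ± 0.17), Rpl28 (-0.25 ± 0.19), Rps4l (-0.22 ± 0.22) and Rpl41 (-0.19 ± 0.17). At the upper end were Rpl32l (0.37 ± 0.40), Rpl22 (0.36 ± 0.16), Rps27 (0.35 ± 0.21), Rpl5 (0.32 ± 0.22) and Rpl9 (0.30 ± 0.38). Rpl5 carries 5S rRNA into the ribosome and, with Rpl11, binds Mdm2. For these members padj was 0.9999 in edgeR's test.

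In 2 colon members the labelled groups did not overlap. Rpl22, a large subunit protein needed for the development of alpha-beta T cells, had 11817, 14781 and 14533 normalized counts under the UC label and 9761, 10356 and 11727 under the control label. The lowest UC library and the highest control library lay less than 100 counts apart. Rplp2 had 11717, 15174 and 15407 under the UC label and 16734, 17829 and 16905 under the control label. Over all genes tested, 3.51% had all UC libraries above all control libraries and 2.15% had them below, so 1 of 80 in each direction was under that background.

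In blood the comparison of the labels came out alike and has the same limit. None of 81 members tested was SDE, as none of the 16759 genes tested was (0%), and DESeq2 and limma-voom called no member. The median log2FC was -0.05 for the members and 0.04 for all genes. It was 0.06 without mouse 1 and 0.10 without mouse 8. The one member with an unadjusted p below 0.05 was Rpl29, a heparin-binding large subunit protein, at a log2FC of 0.65 ± 0.27 (edgeR, unadjusted p = 0.0437, padj = 0.9998). Its normalized counts were 3728, 3131 and 2748 under the UC label and 2623, 1432 and 2053 under the control label. The groups did not overlap, and mouse 8 stood lowest.

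The other members at the upper end in blood were Rpl10a (0.34 ± 0.22), Rps15 (0.29 ± 0.25), Rpl6l (0.28 ± 0.22) and Rpl28 (0.24 ± 0.22). Those at the lower end were Rps4l (-0.38 ± 0.56), Rps24 (-0.33 ± 0.29), Rpl23 (-0.33 ± 0.26), Rpl11 (-0.32 ± 0.27) and Rps15a (-0.30 ± 0.28). Rpl10a, the protein of the L1 stalk that handles outgoing tRNA, had 5161, 6051 and 6409 under the UC label and 5134, 4578 and 4184 under the control label. The nearest libraries, mice 1 and 7, differed by fewer than 30 counts. In blood, 4 of 81 members (Rpl10a, Rpl29, Rpl4 and Rpl6l) had their UC libraries above the control libraries, against 3.08% of all genes, and 0 had them below, against 3.43%.

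**Figure D2:**
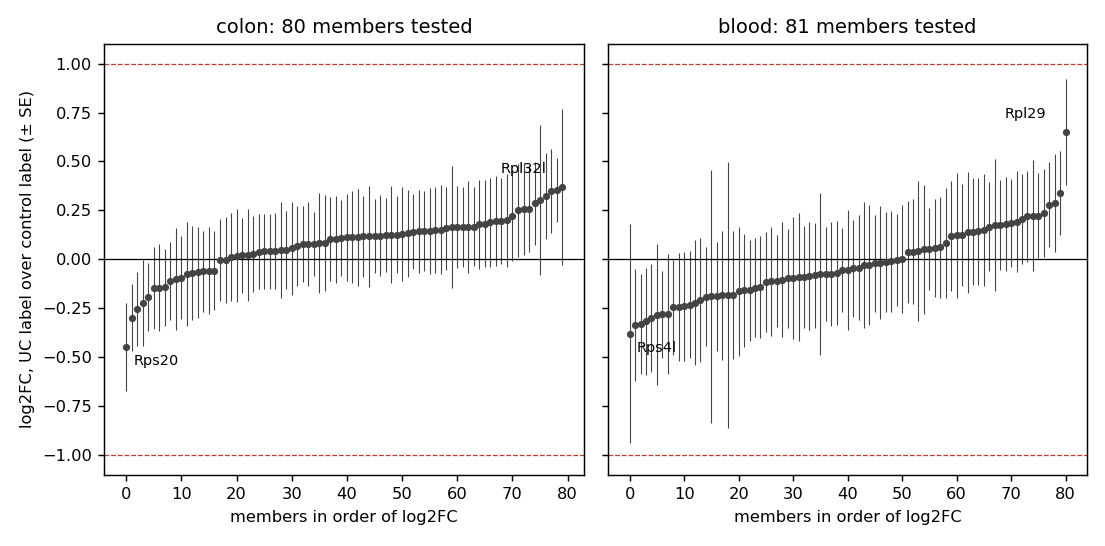
Members in order of their log2FC between the UC and the control label (y axis, edgeR, ± SE), in colon with 80 members and in blood with 81. The dashed lines mark the fold threshold of an absolute log2FC of 1. No member reaches it, the lowest being Rps20 in colon at -0.45 and the highest Rpl29 in blood at 0.65.

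Whether the UC label acted differently on the members in colon and blood was tested by an interaction term over the 12 libraries. None of 81 members passed a padj of 0.05 in edgeR's test, and 1 of 23258 genes did (0.00430%), which was no member. No member had an unadjusted p below 0.05, and DESeq2 and limma-voom called none. With mouse as a replicate block the count of members stayed at 0. The lowest values were those of Rpl29 (-0.80 ± 0.37), Rps20 (-0.51 ± 0.40), Rpl28 (-0.50 ± 0.26), Rplp2 (-0.43 ± 0.31) and Rps15 (-0.35 ± 0.31). The highest were Rpl3l (2.23 ± 1.39, from very low counts), Rpl32l (0.54 ± 0.68), Rpl39 (0.52 ± 0.43), Rpl23 (0.52 ± 0.33) and Rpl5 (0.50 ± 0.40).

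Colon and blood differed in the mix of ribosomal protein messages. Of 81 members tested between colon and blood, 30 were SDE in edgeR's test with TMM scaling, 4 higher in colon and 26 higher in blood, while 37.7% of all genes were higher in colon and 20.8% higher in blood. The members' median log2FC (colon over blood) was -0.64 and that of all genes 0.46. This direction rests on the scaling. With library size alone, where the Rn7s genes fill much of the blood libraries, 62 members were SDE, 61 higher in colon and 1 in blood. Of all 23258 genes tested, 17887 were then higher in colon and 1757 higher in blood. The members' median was 1.50, with that of all genes at 2.57, and 77 of 81 members lay above 0 instead of 14. With each library scaled to the members' own summed counts, 19 were SDE, 14 higher in colon and 5 higher in blood, the median was 0.36 and that of all genes 1.46. By that scaling 56.7% of all genes were higher in colon and 12.1% higher in blood. The distance of the members' median from that of all genes was -1.10, -1.07 and -1.10 under these 3 scalings and -0.78 with the genes of both tables alone.

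**Figure D3:**
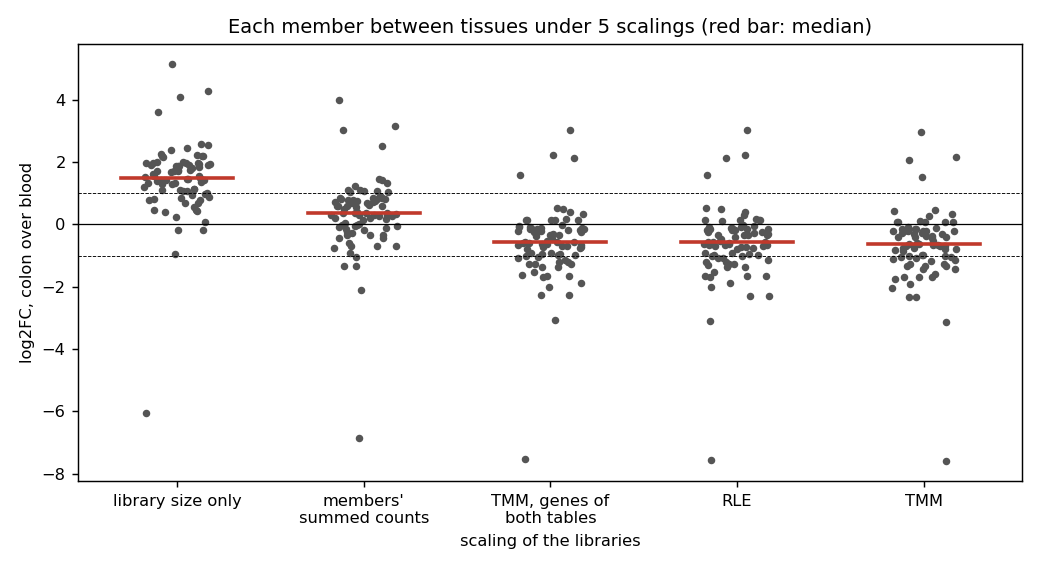
The log2FC between colon and blood of each of the 81 members tested (points, y axis) under 5 scalings of the libraries (x axis). Red bars mark the medians and dashed lines an absolute log2FC of 1. The cloud moves from a median of 1.50 with library size alone to -0.64 with TMM, while the 4 members at the top and Rpl3l at the bottom stay apart from the rest.

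Of the members, 5 were SDE in the same direction under all 5 scalings. The count over all genes was not taken, so it cannot be said whether 5 of 81 is many or few. Rps26, which lines the mRNA exit of the small subunit, was higher in colon (1.51 ± 0.14, padj = 3.75e-06). So were Rps27l (2.16 ± 0.20, padj = 3.14e-06), Rps4l (2.97 ± 0.31, padj = 7.99e-06) and Rpl32l (2.05 ± 0.35, padj = 0.000326). Rpl3l was higher in blood (-7.61, padj = 3.84e-05). In all, 18 of 81 members kept their sign under the 5 scalings, 14 positive and 4 negative, again without a count over all genes. The 4 negative ones were Rpl3l, Rpl41, Rplp0 and Rps9.

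Scaling aside, a member's share of the members' summed counts shows the make-up of the pool within a library. Because shares add up to 100%, a rise of one lowers the others. Rplp0 had the highest share in both tissues. It took 4.63, 4.64, 4.36, 4.65, 4.97 and 5.40% of the pool in the colon of mice 1, 2, 4, 7, 8 and 9, and 15.3, 12.9, 10.3, 10.5, 11.4 and 12.3% in the blood of the same mice. Every blood library lay above every colon library, 12.1 ± 1.87% against 4.77 ± 0.36% (SD, n = 6), and the member-scaled log2FC was -1.34 ± 0.19 (edgeR, padj = 6.62e-05). Its partners were less far apart, Rplp1 at 4.43 ± 0.55% in blood and 2.95 ± 0.19% in colon and Rplp2 at 1.216 ± 0.23% and 0.76 ± 0.13%.

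Rpl41, a very short peptide at the joint of the subunits, took 0.629, 0.584, 0.589, 0.800, 0.644 and 0.744% of the pool in colon and 2.72, 3.56, 2.33, 2.31, 4.01 and 2.19% in blood, in the same order of mice. Its mean share was 4.29 times as high in blood, in 6 of 6 mice, and its member-scaled log2FC was -2.11 ± 0.21 (edgeR, padj = 5.29e-06). Rps9, at the mRNA entry of the small subunit, kept within 1.04 to 1.12% in colon and 2.32 to 3.09% in blood. Rpl39, in the wall of the exit tunnel, held 0.94 ± 0.08% in colon and 1.94 ± 0.40% in blood, and the zinc-binding Rps29 held 1.69 ± 0.19% and 3.20 ± 0.40%. The first 3 of these were SDE by the member scaling and Rps29 (-0.92) was not.

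On the colon side, Rps26 took 0.829 to 0.922% of the pool in the 6 colon libraries and 0.117 to 0.181% in the 6 blood libraries. Its mean share was 5.68 times as high in colon, and the member-scaled log2FC was 2.51 ± 0.15 (edgeR, padj = 2.05e-07). Rpl10a held 1.10 ± 0.07% in colon and 0.42 ± 0.07% in blood, and Rpl7a 2.19 ± 0.19% and 1.03 ± 0.23%. The members higher in colon by the member scaling also included Rpl29, Rps25, Rps18, Rpl22, Rpl15 and Rpl6, with log2FC from 1.04 to 1.31, beside Rpl6l, Rpl32l, Rps27l and Rps4l. Rpsa, which also serves as a laminin receptor, had 2.61 ± 0.31% in colon and 2.10 ± 0.34% in blood, higher in colon in 5 of 6 mice.

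Of the 78 members with at least 100 counts in every library, 45 had the higher share in colon in 6 of 6 mice, 15 had it in blood in 6 of 6 mice, and 18 were mixed. The pool was more top-heavy in blood. The 5 leading members there (Rplp0, Rplp1, Rps29, Rpl41 and Rps14) made up 25.4% of it, and the 5 leading in colon (Rplp0, Rpl4, Rplp1, Rpsa and Rpl7) 15.7%. The summed normalized counts of large over small subunit members gave ratios of 1.49 to 1.53 in colon and 1.62 to 1.90 in blood. These sums cover 51 large and 32 small subunit members and are not corrected for gene number or length. Without Rplp0 the ratios were 1.36 to 1.41 and 1.32 to 1.45, and the tissues overlapped. Counts of genes named as ribosomal protein pseudogenes (-ps) came to 4.30 to 4.63% of the members' counts in colon and 2.64 to 3.60% in blood. Reads shared between such copies and their parents may be split either way.

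**Figure D4:**
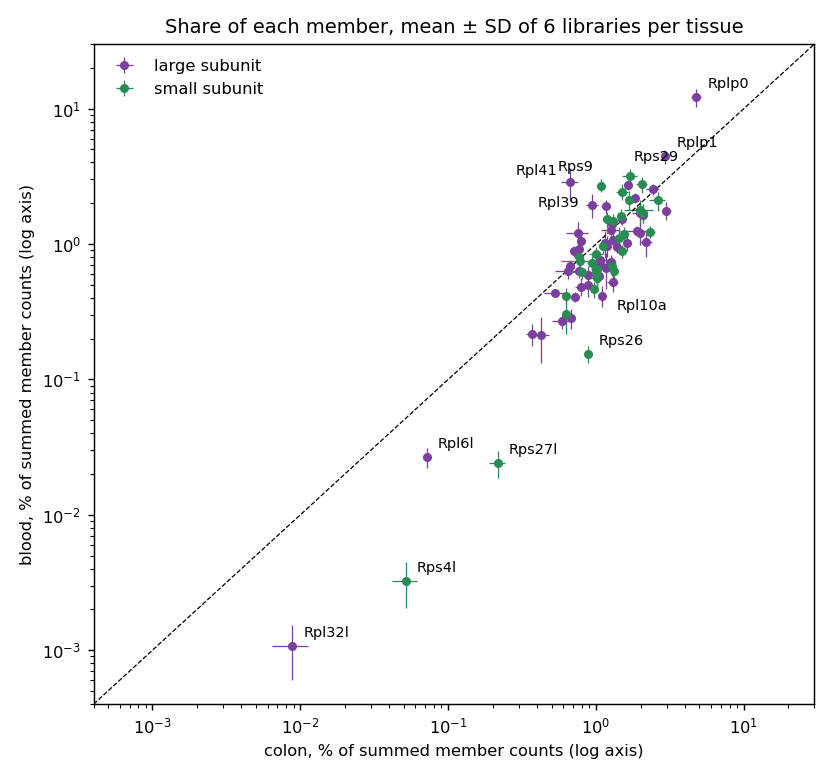
Share of each member in the members' summed counts, colon on the x axis and blood on the y axis, both in percent on log axes, as mean ± SD of 6 libraries per tissue. Purple marks large and green small subunit proteins, and the dashed line marks equal shares. Rplp0, Rpl41 and Rps9 lie above the line, and Rps26, Rps27l, Rps4l and Rpl32l far below it. Rpl3l (2 counts in all colon libraries together) and the genes at 0 in a tissue are left out.

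The paralogs set against their relatives gave the widest gaps. Rps27l, a paralog of Rps27 that p53 can induce, reached 12.59 to 22.04% of the count of Rps27 in colon and 1.92 to 2.44% in blood, with 2960 to 6021 counts in colon and 192 to 478 in blood. Rps27 itself was not SDE between the tissues (-0.65 ± 0.20, padj = 0.0127 in edgeR's test). Rps4l stood at 1.71 to 3.00% of the X-linked Rps4x in colon and at 0.0886 to 0.406% in blood, with Rps4x at -0.09 ± 0.16. Rpl32l stood at 0.322 to 0.756% of Rpl32 in colon and 0.0534 to 0.188% in blood.

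Rpl6l differed from these. It held 4.93 to 6.35% of the count of Rpl6 in colon and 4.64 to 5.68% in blood, so its ratio to the parent was much the same in both tissues. As processed copies, Rpl6l, Rpl32l and Rps4l may each share reads with their relatives, and the values of all 3 are uncertain for that reason. Rpl3l had 10 to 46 counts in each blood library. In colon it had 2 counts in 1 library (mouse 4) and 0 in the others, with Rpl3 at -0.27 ± 0.18. Relative to the summed members, Rpl3l was 118 times as high in blood, with a 95% exact interval of 31.9 to 980 that covers counting error only. Rpl39l had 16 counts in the blood of mouse 7, 4 in that of mouse 8 and 0 elsewhere, and Rpl10l had 3 in the colon of mouse 1 and 0 elsewhere. Their parents Rpl39 and Rpl10 had a log2FC of -2.05 ± 0.22 and -0.41 ± 0.15.

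**Figure D5:**
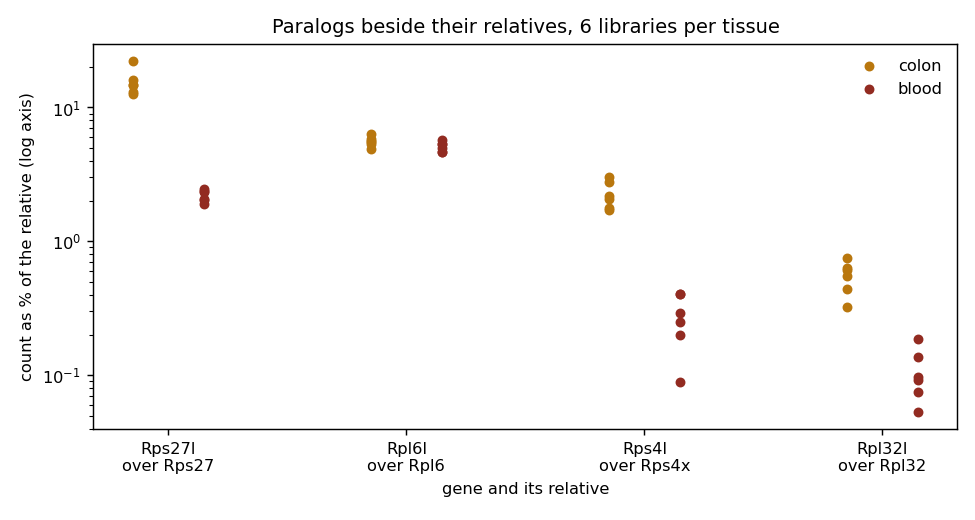
Count of a paralog or processed copy in percent of the count of its relative (y axis, log scale) in the 6 colon and the 6 blood libraries, for Rps27l, Rpl6l, Rps4l and Rpl32l (x axis). The tissues do not overlap for Rps27l, Rps4l and Rpl32l and overlap for Rpl6l.

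Genes around the ribosome gave a setting for these values. Between the disease labels none of them was SDE in either tissue. The 8 ribosomal protein genes outside the name rule had a median log2FC of -0.49 between the tissues, beside -0.64 for the members. Of 21 translation factors and other TOP transcripts, 2 were higher in colon and 4 in blood, among them Eif3l (1.38 ± 0.16), Eif3f (1.10 ± 0.15), the poly(A)-binding protein Pabpc1 (-5.84 ± 0.37) and the TOP transcript Tpt1 (-2.51 ± 0.23). The shares over all genes were 37.7% and 20.8%. With member scaling the counts of this list were 11 and 3, against 56.7% and 12.1% of all genes.

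Of 30 ribosome biogenesis genes 4 were higher in colon and 2 in blood, with Utp20 (1.47 ± 0.21) and Tsr1 (1.36 ± 0.22) at one end and Wdr12 (-1.28 ± 0.27) and Dkc1 (-1.15 ± 0.22) at the other. Their median log2FC was -0.03, against 0.46 for all genes, and 37.7% of all genes were higher in colon and 20.8% in blood. Member scaling made the counts 15 and 0, against 56.7% and 12.1% of all genes. Among the 8 genes that control TOP messages, Larp1 was higher in colon (1.296 ± 0.18), and Eif4ebp1 (-1.80 ± 0.37) and Rps6kb1 (-1.77 ± 0.19) were higher in blood. By member scaling 6 of the 8 were higher in colon, as 56.7% of all genes were, and none in blood.

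The proteins of the mitochondrial ribosome, which translates the few messages of the mitochondrial genome, had a median on the other side of 0 under TMM. Of 78 such genes, 39 were higher in colon and 2 in blood, against 37.7% and 20.8% of all genes. Their median log2FC was 0.99, beside 0.46 for all genes and -0.64 for the cytosolic members. Mrps6 (3.74 ± 0.32) and Mrpl45 (3.31 ± 0.25) led, and Mrpl32 (-1.46 ± 0.19) and Mrpl33 (-1.17 ± 0.23) were lowest. With member scaling 73 were higher in colon, against 56.7% of all genes, and the median was 1.99, beside 1.46 for all genes and 0.36 for the cytosolic members. No test compared the 2 lists with each other.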

How the data were processed

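Total RNA of 12 libraries (6 mice, colon and whole blood) was used. The authors aligned reads with STAR to GRCm38 and estimated counts per gene with StringTie 1.3.4c. The deposited gene counts are raw, and the deposited normalized counts of each tissue, a signal scaled by DESeq2 size factors by the authors, were normalized separately. No strand setting was stated, so overlapping and antisense genes cannot be told apart. The members and gene lists were chosen with earlier results of these data known. Groups followed the tissue and disease entries of the labels, and mice with the same number gave both tissues, so those numbers pair the libraries. Deviations from the group means correlated at 0.02 to 0.27 between the libraries of a mouse.

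Raw counts were tested with edgeR 4.0.16 (R 4.3.3, TMM, filterByExpr, quasi-likelihood F-test) over all genes, with Benjamini-Hochberg adjustment. A gene was SDE when padj did not exceed 0.05 and log2FC was above 1 or below -1 (interaction: padj alone). Alternatives were RLE scaling, library size alone, the members' summed counts, the genes of both tables, other filters, DESeq2 1.42.0, limma-voom (limma 3.58.1), a mouse block and leaving out each mouse. Named members were those SDE, the 5 highest and lowest per comparison and per kb, the 3 most and least variable per tissue, the paralogs and stalk genes; for other lists, the 2 highest and lowest log2FC. Counts of 0 and intervals cover counting error only. The mice were group-housed, and nothing says which of them shared a cage. Within a tissue, p-values measure the spread between mice. For colon against blood and the interaction, the main fit treated the libraries of a mouse as independent. Only the mouse block paired them. On simulated counts with a dispersion shared by all genes, the test called 42 of 100 genes changed by a log2FC of 2 between the disease labels in blood and 19 of 100 in colon. The simulation did not use the members' own spread. Their median coefficient of variation was 17.0% in colon and 18.1% in blood. These counts therefore do not say how often a changed member would be called. Results for some genes are not reported here. Lengths per kb were those of the shortest transcript with the longest coding sequence.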

Additional observations from a re-analysis of the deposited data

How the results depend on the processing

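No member was SDE between the disease labels, or in the interaction, under any alternative run, and the members' median log2FC moved by less than the spread between libraries in all of these except with library size alone, where it was -0.29 in blood and 0.39 for the interaction. Leaving out 1 mouse gave medians from -0.0009 to 0.26 in colon, from -0.16 to 0.10 in blood and from 0.04 to 0.20 for the interaction. Between colon and blood the count of 30 SDE members became 62 with library size alone, 19 with the members' summed counts and 55 with padj alone. Over all 23258 genes tested, the count of 13604 became 19644 and 15994 under the first 2. With padj alone it was not taken over all genes. The median of -0.64 became 1.50 and 0.36 under the first 2. Leaving out 1 mouse gave 24 (without mouse 8) to 31 members and medians from -0.68 to -0.51. With the replicate block, which pairs the tissues of a mouse, 29 members were SDE and the median was -0.63. It changed no call among the members listed below.

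With library size alone, 77 of all 81 members lay above 0 between colon and blood, instead of 14. Listed here are the 26 sign changes among members named for this comparison and SDE under TMM or library size alone. Their negative log2FC turned positive with library size alone: Rpl10 to 1.72, Rpl12 to 1.01, Rpl13 to 0.40, Rpl17 to 0.86, Rpl19 to 1.10, Rpl3 to 1.86, Rpl34 to 1.09, Rpl35 to 0.82, Rpl35a to 0.87, Rpl37a to 0.46, Rpl38 to 0.70, Rpl39 to 0.080, Rpl7 to 1.07, Rplp1 to 0.57, Rplp2 to 0.46, Rps12 to 0.44, Rps14 to 0.70, Rps15a to 0.78, Rps21 to 1.08, Rps23 to 0.95, Rps24 to 0.78, Rps27 to 1.46, Rps29 to 0.23, Rps4x to 2.02, Rps7 to 0.98 and Rpsa to 1.46. Scaling to the members' summed counts took 21 of the 26 calls higher in blood away, with no change of sign in these, and added 10 calls higher in colon. Of all 81 members, 55 instead of 14 then lay above 0.

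The members' mean share of counts over all counts, Rn7s genes included, was 2.55% in UC colon, 2.36% in control colon, 1.01% in UC blood and 1.23% in control blood. Over protein-coding counts it was 3.14, 2.97, 3.21 and 3.24%, and over the genes listed for a tissue it was 2.90, 2.75, 2.61 and 2.76%. Depth limits Rpl3l, Rpl10l, Rpl39l, Rpl32l and Rps4l, which had at most 59 counts in a blood library, while for the other members the spread between 3 libraries per group sets the limit.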
